A study of Mus musculus with 26 samples.

Results

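Microglia are the resident macrophages of the brain, and the genes described here are 37 that microglia and other macrophages express and that were taken by symbol from a list. The list was drawn up with earlier results of these data known. All 37 were found among the 31979 genes shared by the count tables. They fall by role into 14 homeostatic surface receptors and adhesion molecules, 3 subunits of C1q, 5 genes of Trem2, its adaptor Tyrobp and the Fc receptors, 6 genes of innate sensing, 5 genes of the lysosome and the phagocyte oxidase, and 4 pan-leukocyte and macrophage markers.

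Microglia come from the yolk sac, depend on signals through the receptor Csf1r, and are held in a surveying state by the fractalkine receptor Cx3cr1, purinergic receptors such as P2ry12, and TGF-beta. They tag synapses and debris with complement C1q, take them up through Trem2 and Fc receptors, which signal through Tyrobp and Fcer1g, and digest them in lysosomes rich in cathepsin S and Cd68. In the striatum they surround medium spiny neurons, and drugs of abuse are among the stimuli known to change their state. Mrc1 and Lyz2 are also, and more strongly, genes of the macrophages along brain borders and vessels, and Itgb5, Cyba, Olfml3 and Cd68 are made by other cells too.

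The libraries were made from dorsal striatum of adult Drd2-EGFP/Rpl10a mice (Drd2-TRAP line CP101, FVB/N-Swiss Webster crossed for at least 9 generations to C57BL/6). All animals carry the transgene, in which Drd2 regulatory sequence drives an EGFP-tagged ribosomal protein, so that anti-EGFP beads pull down ribosomes of Drd2-expressing cells, chiefly indirect-pathway medium spiny neurons and also cholinergic interneurons, and not those of microglia by design. Mice had self-administered saline or cocaine intravenously with long access. Of the 23 immunopurified libraries, 9 were of nonescalating cocaine mice in withdrawal, 5 of saline mice in withdrawal, 4 of nonescalating cocaine mice, 3 of saline mice and 2 of escalating cocaine mice. Another 3 libraries were unpurified input, 1 each from the saline, nonescalating and saline withdrawal conditions, and neither the escalating nor the nonescalating withdrawal group had an input. The length of withdrawal, the numbers of animals pooled and whether libraries came from separate animals are not given in the sources used. The p-values below therefore reflect how these libraries vary, which may be technical.

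Libraries held 3279457 to 19122303 counts in genes, and 3 counts, the most that a count of 0 allows, corresponded to between 0.157 and 0.915 CPM (counts scaled to the library's total), a limit that covers counting error only. The numbers in the titles form 2 sets: set A holds 17 libraries, and set B holds 9, all from withdrawal. The share of reads that the authors' counting placed outside genes ran from 21.2% to 70.7% over immunopurified libraries (median 36%) and was 27.3%, 31.6% and 30.8% in the saline, nonescalating and saline withdrawal inputs. The purification left its mark on neuronal genes: 7 of 8 markers of indirect-pathway neurons were higher in immunopurified libraries than in input by edgeR's quasi-likelihood test, Drd2 by 2.79 on the log2 scale, while 9 of 10 oligodendrocyte and 6 of 10 astrocyte markers were lower.

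Microglial transcripts were scarce everywhere. The 37 genes summed to 67.3, 148 and 204 CPM in the saline, nonescalating and saline withdrawal inputs, and to between 9.89 and 228 CPM in immunopurified libraries (median 57.7). For comparison, the 10 oligodendrocyte markers summed to between 1624 and 2293 CPM in the inputs. The whole set thus rested on 432, 1679 and 892 counts in the 3 inputs and on 43 to 3870 counts in an immunopurified library. In these bulk samples, fewer microglia and less RNA per microglial cell cannot be told apart.

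**Figure D1:**
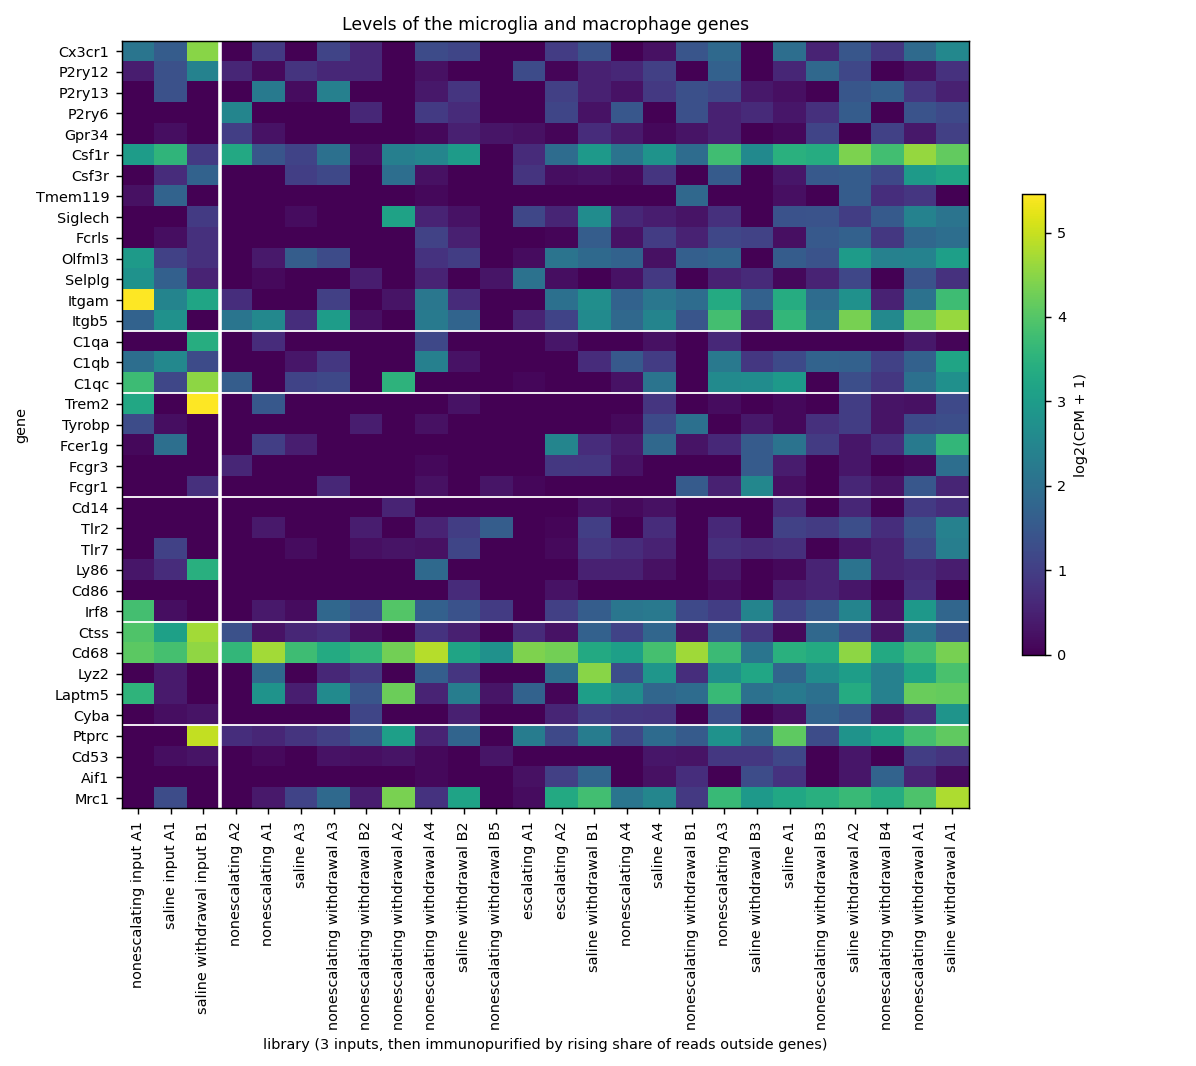
Level of each of the 37 genes, as log2(CPM + 1), in every library: rows are genes grouped by role, with white lines between roles, and columns are the 3 inputs followed by the 23 immunopurified libraries in order of rising share of reads outside genes. Only Cd68 has a read in all 23 immunopurified libraries, and many other genes alternate between dark cells at 0 and single bright cells.

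Counts were patchy from library to library. Of the 37 genes, 11 had a read in all 3 inputs, 11 were at 0 in 1 input, 9 were at 0 in 2 inputs, and 6 (P2ry6, Fcgr3, Tlr2, Aif1, Cd14 and Cd86) were at 0 in all 3. Only Cd68, a lysosomal glycoprotein of phagocytes, had a read in every immunopurified library. The numbers of genes at 0 in 1 to 5, 6 to 11, and 12 or more immunopurified libraries were 10, 19 and 7. An immunopurified library detected between 8 and 37 of the genes (median 26), and the inputs detected 26, 18 and 20. The patchiness was larger than over all genes, but these were not matched to the members in level. Among genes with at least 30 counts in some input, 6 of 16 members (37.5%) were at 0 in another input, against 10.2% of all genes, and over immunopurified libraries it was 24 of 25 members (96.0%) against 29.6%. Ptprc, the leukocyte phosphatase CD45, had 0, 0 and 132 counts in the saline, nonescalating and saline withdrawal inputs, and Trem2, a receptor for lipids and debris, had 0, 97 and 185. Itgam, the CD11b chain of complement receptor 3, had 29, 484 and 36. The biological coefficient of variation, edgeR's estimate of the spread between libraries beyond counting error, had a median of 1.42 over tested members in immunopurified libraries against 0.586 over all genes, with Cd68 lowest at 0.485 and Tmem119 highest at 2.50. All genes were again not matched in level, and the part of low counts in these differences was not tested.

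Levels per kilobase of exon allow genes to be ranked. In the inputs the highest mean level was that of Cd68 (13.7 CPM per kilobase), followed by the cysteine protease Ctss (11.6), the complement subunit C1qc (6.12), Itgam (3.69) and Trem2 (3.43). The values per input overlap between Cd68 and Ctss, and C1qc, Itgam and Trem2 cannot be ordered, since each was dominated by 1 or 2 inputs. In immunopurified libraries Cd68 was again highest (11.1 CPM per kilobase), followed by lysozyme, Lyz2 (3.13), the Fc receptor gamma chain Fcer1g (1.60), the integrin subunit Itgb5 (1.59) and the lysosomal protein Laptm5 (1.44). Below Lyz2 this order depends on a few high libraries: by the median over the 23 libraries the next were Mrc1 (1.06), Laptm5 (0.988), Itgb5 (0.936) and Csf1r (0.873), and Fcer1g was at 0 in 8 libraries. Ctss, next to Cd68 in the inputs, was not among the 5 highest after purification.

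Promoter sequence was available from RefSeq (GRCm38.p6) for 27 of the 37 genes, in 30 windows of the 250 bases before an annotated start. The windows below are shown because these genes carry the results that follow: Ctss fell with purification, and Ptprc, Csf3r, Fcer1g and Itgb5 are, of the genes with a window, those whose rise with the share of reads outside genes was called under the most settings of the analysis. Ptprc has a pair of windows, which overlap. The motif searched was GAGGAA on both strands, the core that the myeloid factor PU.1 (gene Spi1) is known to bind. Capitals mark its match, on either strand.
Ctss, chr3:95526536-95526785, + strand: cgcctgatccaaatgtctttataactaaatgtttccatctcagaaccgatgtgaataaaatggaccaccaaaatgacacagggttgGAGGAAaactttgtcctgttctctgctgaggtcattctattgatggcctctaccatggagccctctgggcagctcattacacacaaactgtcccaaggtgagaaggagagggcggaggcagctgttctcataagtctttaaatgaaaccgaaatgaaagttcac
Ptprc, chr1:138175127-138175376, - strand: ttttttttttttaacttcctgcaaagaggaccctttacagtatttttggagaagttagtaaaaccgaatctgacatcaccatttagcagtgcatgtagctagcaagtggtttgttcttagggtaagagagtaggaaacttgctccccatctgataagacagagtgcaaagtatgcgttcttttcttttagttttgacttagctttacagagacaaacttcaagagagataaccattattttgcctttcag
Ptprc, chr1:138175306-138175555, - strand: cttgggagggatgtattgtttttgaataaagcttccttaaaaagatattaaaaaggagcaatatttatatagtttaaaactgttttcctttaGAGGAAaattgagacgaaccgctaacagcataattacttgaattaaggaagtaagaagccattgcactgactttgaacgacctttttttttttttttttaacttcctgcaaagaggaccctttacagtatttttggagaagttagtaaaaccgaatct
Csf3r, chr4:126024409-126024658, + strand: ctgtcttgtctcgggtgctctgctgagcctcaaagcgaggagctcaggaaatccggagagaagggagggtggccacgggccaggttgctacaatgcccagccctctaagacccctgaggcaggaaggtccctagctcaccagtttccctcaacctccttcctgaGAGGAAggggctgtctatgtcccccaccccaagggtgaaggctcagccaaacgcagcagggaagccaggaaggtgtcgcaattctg
Fcer1g, chr1:171234350-171234599, - strand: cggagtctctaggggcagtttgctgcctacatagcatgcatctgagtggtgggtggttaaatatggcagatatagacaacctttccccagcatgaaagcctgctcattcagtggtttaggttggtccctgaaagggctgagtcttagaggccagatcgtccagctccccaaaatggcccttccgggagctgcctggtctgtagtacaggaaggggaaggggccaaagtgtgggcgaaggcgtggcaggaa
Itgb5, chr16:33829415-33829664, + strand: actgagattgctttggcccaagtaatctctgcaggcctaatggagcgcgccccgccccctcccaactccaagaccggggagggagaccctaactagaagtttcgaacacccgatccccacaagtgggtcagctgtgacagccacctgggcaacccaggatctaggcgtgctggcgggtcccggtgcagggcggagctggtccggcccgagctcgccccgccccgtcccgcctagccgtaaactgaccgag

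The match begins 164 bases before the start in Ctss, 86 in Csf3r and 158 in the second Ptprc window, and Fcer1g, Itgb5 and the first Ptprc window hold none. Of the 12 genes called for rising with the share, 9 have a window and 4 of these hold the motif. GAGGAA occurred in 17 of 30 windows (56.7%) and in 16 of 27 genes of the set, against 7639 of 32851 windows of all genes (23.3%). The longer composite that PU.1 binds with an interferon regulatory factor, GGAA followed after any 2 bases by GAAA, which overlaps the shorter motif where a G and an A precede it, was searched on both strands and occurred in 0 of 30 windows, against 2.30% of all windows. A match describes letters and not binding, and no match says only that these letters are not in this window. Spi1 itself did not pass the test in either comparison below (immunopurified versus input 4.68 ± 2.20, log2 and SE, adjusted p = 0.198, edgeR).

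The comparison of immunopurified libraries with input asks how much of each transcript remained on the beads relative to other genes. It used the 3 inputs and the 12 immunopurified libraries of the conditions that have one. Inputs also differed in counting: ambiguous reads were 8.61% to 12.8% in inputs and 0.942% to 2.85% over all immunopurified libraries. The part of this in the fold changes was not tested. Ctss was the only gene of the set to pass the test, and it was lower after purification. The other genes divided: 15 of the 31 tested had a positive log2 fold change and 16 a negative one, with a median of -0.22 against 0.17 over all genes. Of all 16424 genes tested, 6.84% were called at an adjusted p under 0.05, 3.34% higher and 3.51% lower in immunopurified libraries. DESeq2 gave another split, with 1831 genes higher and 1095 lower, and voom 218 and 720. Beside these shares, 1 of 31 members called lower and 0 called higher is close to the background. At an unadjusted p under 0.05 there were 9 members. Gpr34, C1qa, Fcgr1, Cd14, Cd86 and Cd53 had too few counts to be tested.

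Ctss, on chromosome 3 (95526786-95556403, + strand, GRCm38, ENSMUSG00000038642.10), codes for cathepsin S, a lysosomal cysteine protease that is high in microglia and antigen-presenting cells. Its levels in the saline, nonescalating and saline withdrawal inputs were 7.63, 14.5 and 25.1 CPM. In the 12 immunopurified libraries they ran from 0.0832 to 2.47 CPM with a median of 1.32. Every input lay above every one of these immunopurified libraries, a separation that no other member showed in either direction. The share of all genes with such a separation was not counted. The log2 fold change was -3.65 ± 0.78 (SE; edgeR quasi-likelihood, adjusted p = 0.0117). The adjusted p by edgeR was 0.0849 without the nonescalating input and 0.075 without the saline withdrawal input, with log2 fold changes of -3.70 and -3.25, and 0.0335 without the saline input (-3.99).

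**Figure D2:**
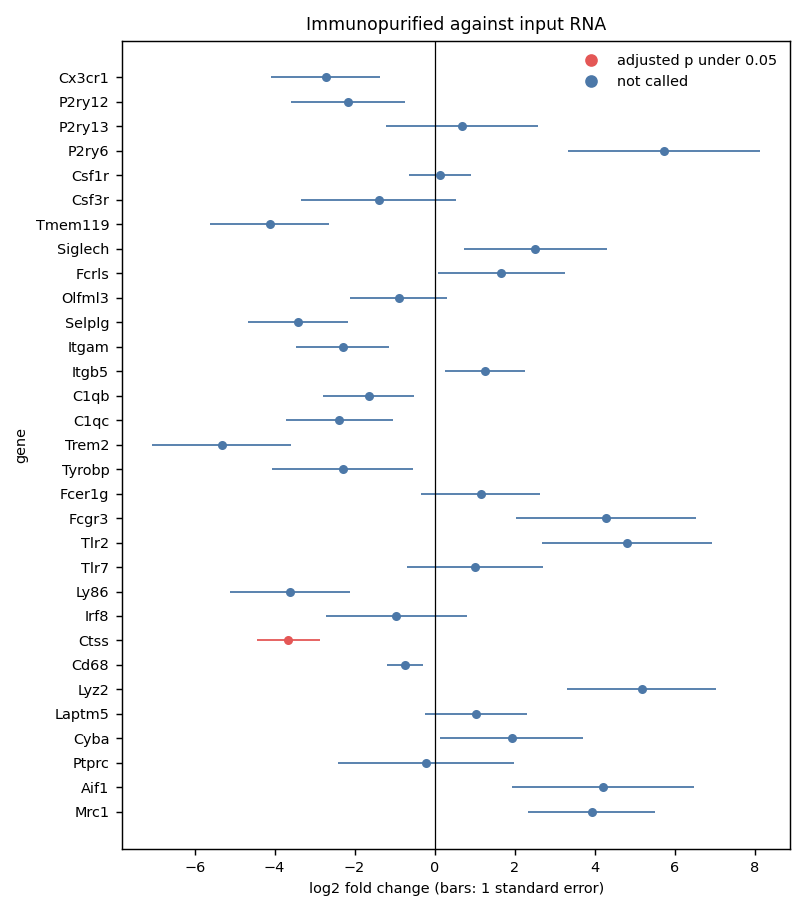
Log2 fold change of each tested gene in the 12 immunopurified libraries against the 3 inputs, grouped by role, with bars of 1 SE and called genes in red. Ctss, at -3.65, is the one called gene, and the 15 positive and 16 negative values have wide bars.

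Among the homeostatic receptors and adhesion genes, 7 of 13 tested were negative and 6 positive, and none was called by edgeR, with 3 at an unadjusted p under 0.05. DESeq2 called none of them and voom called Selplg. Tmem119, a membrane protein restricted to microglia in brain, was at 2.34, 0.177 and 0 CPM in the saline, nonescalating and saline withdrawal inputs and had a median of 0 in the 12 immunopurified libraries (highest 1.99), with a log2 fold change of -4.13 ± 1.49 (SE, adjusted p = 0.108, edgeR). Selplg, the P-selectin ligand, was at 2.18, 5.84 and 0.457 CPM in the inputs and between 0 and 1.24 CPM (median 0.155) after purification (-3.42 ± 1.25, adjusted p = 0.103, edgeR). The groups overlapped for both genes. Cx3cr1 was at 2.02, 3.36 and 21.5 CPM in the inputs, and its 12 immunopurified values (0 to 4.83, median 1.05) overlapped the lower inputs. P2ry12 was at 1.56, 0.354 and 4.34 CPM in the inputs and at 0 to 2.23 CPM (median 0.516) in the 12. Csf1r, the receptor on which microglial survival depends, was about as high after purification (1.15 to 19.9 CPM, median 6.85) as in the inputs (10.9, 7.07 and 0.913 CPM). Its log2 fold change was 0.13 ± 0.77 (adjusted p = 0.931, edgeR). Csf1r shares 873 bases with Hmgxb3 on the other strand, and without a stated strand setting their reads there cannot be told apart. Itgam was at 4.52, 42.8 and 8.22 CPM in the inputs and at 0 to 12.5 CPM (median 2.87) in the 12 (-2.30 ± 1.16, adjusted p = 0.222, edgeR). Itgb5 had an input of 0 and overlapped fully: 5.76, 2.30 and 0 CPM in the inputs against 0.56 to 23.3 (median 4.67).

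Of the C1q subunits, which start the classical complement cascade, C1qb and C1qc were tested and both were negative. C1qc was at 1.25, 12.3 and 21.9 CPM in the saline, nonescalating and saline withdrawal inputs against 0 to 6.65 CPM (median 1.77) in the 12 (-2.38 ± 1.34, adjusted p = 0.272, edgeR). C1qb was at 4.83, 2.92 and 1.37 CPM in the inputs against 0 to 8.12 (median 0.906). The 3 inputs ranked these neighbouring genes in opposite order, C1qb highest in saline and C1qc highest in saline withdrawal, while C1qa had reads only in the saline withdrawal input (9.59 CPM). The genes lie next to each other on chromosome 4 and their products form 1 protein.

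Trem2 had the most negative log2 fold change of the set, -5.33 ± 1.73 (SE, adjusted p = 0.0727, edgeR), and did not pass. Its levels were 0, 8.58 and 42.2 CPM in the saline, nonescalating and saline withdrawal inputs and 0 to 1.81 CPM (median 0.111) in the 12 immunopurified libraries. The nonescalating and saline withdrawal inputs lay above all 12, and the saline input lay at the bottom. Without the saline input the adjusted p of Trem2 was 0.0336. Tyrobp, the adaptor through which Trem2 signals, was at 0.156, 1.41 and 0 CPM in the inputs and did not pass (-2.30 ± 1.76, adjusted p = 0.426, edgeR). Fcer1g was at 2.96, 0.0884 and 0 CPM in the inputs and at 0 to 11.2 CPM (median 0.585) in the 12, so that all inputs lay within the immunopurified range. Fcgr3, a low-affinity Fc receptor, was at 0 in all inputs, and with the 3 counts that this allows it was at least 4.31-fold higher in the mean of the 12 (2.11-fold without the nonescalating input).

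Innate sensing genes had few counts. Ly86, a partner of the receptor CD180, was at 0.62, 0.27 and 9.82 CPM in the inputs and at 0 to 3.24 CPM (median 0.13) in the 12 (-3.62 ± 1.49, adjusted p = 0.145, edgeR). Tlr2, a receptor for bacterial lipoproteins, was at 0 in the inputs and at least 6.33-fold higher in the mean of the 12. P2ry6, a UDP receptor that triggers phagocytosis, and Aif1, the cytoskeletal protein Iba1, were likewise at 0 in the inputs and at least 7.18-fold and 3.16-fold higher. These bounds take 3 counts over the 3 inputs together, and each falls by over 1.5 times without the nonescalating input (to 3.51 for P2ry6, 3.09 for Tlr2 and 1.54 for Aif1) or without 1 immunopurified library, which is nonescalating replicate 2 for P2ry6, saline withdrawal replicate 1 of set A for Tlr2 and Fcgr3, and replicate 1 of set B for Aif1. None of these genes was called (adjusted p = 0.243 for Fcgr3, 0.172 for Tlr2, 0.154 for P2ry6 and 0.266 for Aif1, edgeR). Irf8, a transcription factor of the myeloid lineage, was at 0.156, 13.1 and 0 CPM in the inputs and had a log2 fold change of -0.96.

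Lysosomal and pan-macrophage genes pointed both ways. Cd68 was at 13.4, 15.9 and 22.4 CPM in the inputs and at 3.36 to 25.1 CPM (median 11.6) in the 12, and the groups overlapped (-0.73 ± 0.45, adjusted p = 0.315, edgeR). Lyz2 was at 0.311, 0 and 0 CPM in the inputs and at 0 to 21.4 CPM (median 4.09) after purification (5.18 ± 1.86, adjusted p = 0.0987, edgeR). Mrc1, the mannose receptor, was at 1.40, 0 and 0 CPM in the inputs and at 0 to 26.4 CPM (median 7.33) after purification (3.92 ± 1.60, adjusted p = 0.140, edgeR). Both were thus higher in most immunopurified libraries than in any input without passing the test, while DESeq2 called both (log2 fold changes of 5.49 and 4.24). Laptm5 was at 0.311, 10.6 and 0 CPM in the inputs and at 0 to 16.9 CPM (median 4.69) in the 12. Ptprc did not differ detectably (0, 0 and 30.1 CPM in the inputs, 0.504 to 16.3 with a median of 2.63 in the 12).

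Genes outside the set gave the setting for these values. Of 21 other microglial genes tested, Abi3 (8.71) and Lyn (4.47) were higher after purification and Cst3, the abundant protease inhibitor cystatin C (-2.32), was lower, as log2 fold changes. DESeq2 called 5 of these genes higher and 2 lower, and voom 0 and 1. Of 9 myeloid transcription factors, those lower included Sall1 (-2.74) and Mef2c (-0.69), and Mef2c is also a neuronal factor. Of 6 markers of border macrophages, the scavenger receptor Stab1, which endothelium also makes, was higher (6.37) and Cd163 lower (-1.19), while voom called none of the 6 higher. Of 6 genes of activated microglia, Apoe, which astrocytes also make, was lower (-3.17). Of 10 complement genes and 6 ligands of microglial receptors edgeR called none, with 3 and 2 at an unadjusted p under 0.05, DESeq2 called 2 and 1, and voom none. All 13 endothelial and mural markers were positive, and 5 of them were called higher by edgeR, 11 by DESeq2 and 2 by voom.

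Within the immunopurified libraries 12 of the 33 members tested rose with the share of reads outside genes and none fell. DESeq2 called 13 and voom 18, and 32 slopes were positive by edgeR. These 12 include receptors (Csf1r, Csf3r, Gpr34), the signalling adaptors Fcer1g and Tyrobp, C1qb, Lyz2 and Ptprc. The slope is the log2 change per 10 percentage points of the share in a fit of the 23 libraries with group and library set as terms. The same test called 47.8% of all 16910 genes, 25.1% higher and 22.7% lower (4240 and 3847 genes, or 4939 and 2838 with RLE factors). The members' 12 of 33 is a smaller share than the 47.8% called in either direction and a larger one than the 25.1% called higher. The members' median slope was 0.74 against 0.02 over all genes, and at an unadjusted p under 0.05 there were 16 members. C1qa, Cd14, Cd86 and Cd53 were not tested.

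The 6 immunopurified libraries with the lowest shares (21.2% to 30.4%) held 22.2 to 104 CPM over the 37 genes and detected 11 to 20 of them. The 6 with the highest shares (47.4% to 70.7%) held 69.1 to 228 CPM and detected 26 to 37. The ranges overlapped in the sum through nonescalating withdrawal replicate 2 of set A, a library with a share of 30.4% and a sum of 104 CPM, and did not overlap in the number of members detected. That library detected 13 of the members but had 260 counts of Mrc1, 238 of Laptm5, 199 of Irf8 and 141 of C1qc. Over all genes the number detected did not overlap either. It ran from 13668 to 16721 in the lowest 6 and from 16864 to 18854 in the highest 6. Saline withdrawal replicate 1 of set A, with the highest share, was the highest immunopurified library for 14 of the 37 genes. How often it was the highest over all genes was not counted, so the 14 cannot be read as particular to the members.

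**Figure D3:**
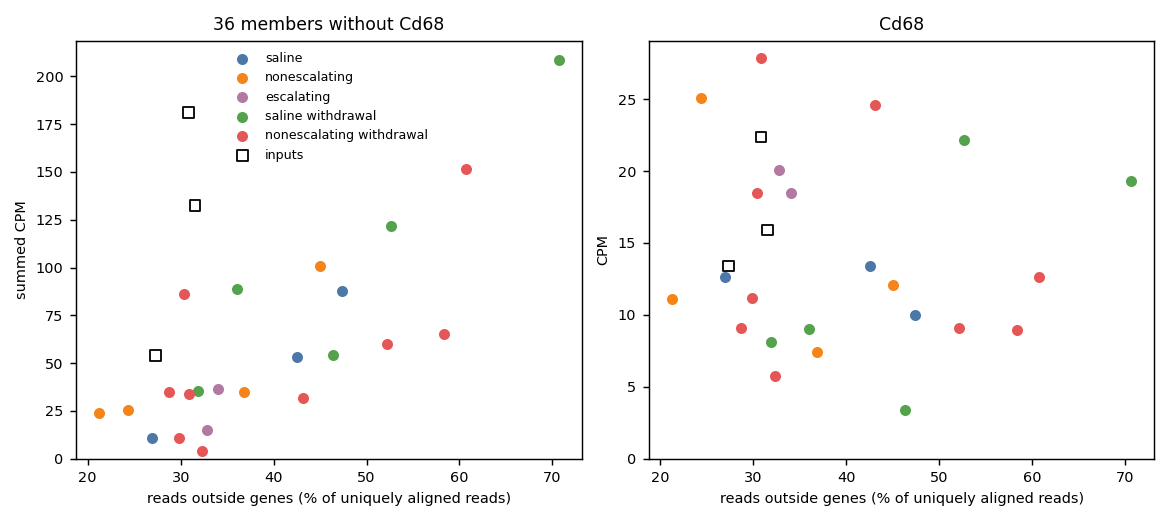
Summed CPM of the 36 genes other than Cd68 (left) and CPM of Cd68 (right) against the share of reads outside genes, with 1 point per library, immunopurified libraries marked by group and inputs marked apart. On the left the immunopurified libraries range from 4.14 to 208 CPM, with the 2 libraries of highest share at the top, while on the right Cd68 lies between 3.36 and 27.8 CPM at low and high shares alike.

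Csf1r had the lowest p of the homeostatic receptors. In the 6 libraries of lowest share it lay between 0.172 and 8.83 CPM (median 2.39), and in the 6 of highest share between 9.34 and 23.2 CPM (median 14.9), with no overlap. Its slope was 0.74 ± 0.21 (SE, adjusted p = 0.00558, edgeR), while Hmgxb3, which overlaps it on the other strand, had a slope of -0.19. Csf3r, the receptor for granulocyte colony-stimulating factor, rose from 0 to 2.91 CPM (median 0.509) in the lowest 6 to between 0.25 and 8.12 (median 1.93) in the highest 6, with a slope of 1.12 ± 0.34 (adjusted p = 0.00888, edgeR). Fcrls, an Fc receptor-like protein of microglia, was at 0 in all of the lowest 6 and at 0.166 to 2.94 CPM in the highest 6 (1.06 ± 0.40, adjusted p = 0.0297, edgeR). Olfml3, a secreted matrix protein, Gpr34, a receptor for lysophosphatidylserine, and Itgb5 were the other called genes of this role, with slopes of 0.86 ± 0.35, 0.78 ± 0.32 and 0.72 ± 0.25 (adjusted p = 0.0445, 0.0493 and 0.0187, edgeR). The remaining 8 of 14 were positive and not called, from P2ry13 at 0.04 to Tmem119 at 1.35 (adjusted p = 0.116, edgeR). Tmem119 was at 0 in all of the lowest 6 and in 2 of the highest 6.

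C1qb was at 0 in 4 of the lowest 6 libraries, with a highest value of 0.845 CPM, and lay between 1.07 and 8.12 CPM (median 2.24) in the highest 6 (slope 0.96 ± 0.38, adjusted p = 0.0412, edgeR). C1qc was not called (0.38, adjusted p = 0.520, edgeR), and its ranges overlapped, from 0 to 10.5 CPM in the lowest 6 and from 0 to 6.65 in the highest 6. Voom called it, with a slope of 1.0 (adjusted p = 0.00349), and DESeq2 did not (0.55). Fcer1g had the steepest slope of all members, 1.72 ± 0.42 (adjusted p = 0.00165, edgeR): it was at 0 in 4 of the lowest 6 (highest 1.01 CPM) and between 0.249 and 11.2 CPM (median 2.09) in the highest 6. Tyrobp, the other adaptor of this kind, was at 0 in 5 of the lowest 6 (highest 0.344 CPM) and between 0.0832 and 1.47 CPM in the highest 6 (1.36 ± 0.51, adjusted p = 0.0305, edgeR). The receptors that use these adaptors, Trem2, Fcgr1 and Fcgr3, had positive slopes of 0.74, 0.93 and 0.36 and were not called. None of the 4 innate sensing genes tested was called by edgeR or DESeq2 (1 and 2 at an unadjusted p under 0.05), and voom called Tlr2. The edgeR slopes of Tlr2 and Tlr7 were 0.74 each (adjusted p = 0.143 and 0.0806, edgeR) and that of Irf8 was 0.04.

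In the lysosome and oxidase group, Cyba, a membrane subunit of the phagocyte oxidase, was at 0 in 5 of the lowest 6 libraries (highest 1.20 CPM) and between 0.166 and 6.06 CPM in the highest 6 (1.34 ± 0.46, adjusted p = 0.0177, edgeR). Lyz2 lay between 0 and 2.62 CPM (median 0.264) in the lowest 6 and between 2.41 and 13.9 CPM (median 6.3) in the highest 6 (0.88 ± 0.35, adjusted p = 0.0403, edgeR). Cd68 differed from these: it lay between 9.08 and 25.1 CPM (median 11.9) in the lowest 6 and between 8.97 and 22.2 CPM (median 11.3) in the highest 6, and its slope was -0.03 ± 0.13 (adjusted p = 0.858, edgeR). Eif4a1, an abundant gene that ends 783 bases before Cd68 on the same strand, had a slope of -0.34 ± 0.06. Ctss, the gene that fell with purification, had a slope of 0.57 ± 0.34 (adjusted p = 0.172, edgeR), with 0 to 1.54 CPM in the lowest 6 and 0.0832 to 3.23 CPM in the highest 6, all below the lowest input.

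Ptprc was the called gene among the pan-leukocyte markers, at 0.504 to 7.39 CPM (median 0.91) in the lowest 6 libraries and 1.40 to 16.3 CPM (median 10.6) in the highest 6 (0.78 ± 0.23, adjusted p = 0.00737, edgeR). Mrc1 (0.71, adjusted p = 0.0654) and Aif1 (0.99, adjusted p = 0.0740) were positive and did not pass the threshold by edgeR, and were called in 11 and 3 of the 35 settings tried. Aif1 was at 0 in all of the lowest 6 libraries. Members with adjusted p just inside the threshold were Gpr34, Olfml3 and C1qb, and these held in 10, 17 and 18 of 35 settings, the reported one included, against 35 of 35 for Csf1r, 33 for Ptprc and 32 each for Csf3r, Fcer1g and Itgb5. The count of 12 fell to 6 without nonescalating withdrawal replicate 3 of set B, and to 7 without either nonescalating withdrawal replicate 3 of set A or saline withdrawal replicate 2 of set B. Csf1r, Csf3r, Fcer1g, Itgb5 and Ptprc were called without each library in turn. Cyba was not called without nonescalating withdrawal replicate 3 of set B (adjusted p = 0.0609, edgeR) or saline withdrawal replicate 1 of set A (0.0542), and Gpr34 lost most without the latter (slope 0.55, adjusted p = 0.271, edgeR). Fcrls was not called without nonescalating replicate 3 (adjusted p = 0.0636, edgeR), nonescalating withdrawal replicates 1 or 3 of set A, or replicate 3 of set B. Tyrobp was not called without nonescalating withdrawal replicates 2 or 3 of set A (adjusted p = 0.0675 without the latter, edgeR), saline replicate 3, or saline withdrawal replicates 1 of set A or 2 of set B. Lyz2, C1qb, Olfml3 and Gpr34 lost the call without any 1 of 9, 12, 14 and 17 of the 23 libraries. The highest adjusted p by edgeR was 0.111 for Lyz2 (without nonescalating withdrawal replicate 1 of set A), 0.0953 for C1qb (without replicate 3 of set B of that group) and 0.110 for Olfml3 (without its replicate 4 of set B). Within set A alone the count was 5 of 32 tested and within set B alone 2 of 11, and it was 8 of 31 once the 2 libraries whose share lay farthest from the median were left out.

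**Figure D4:**
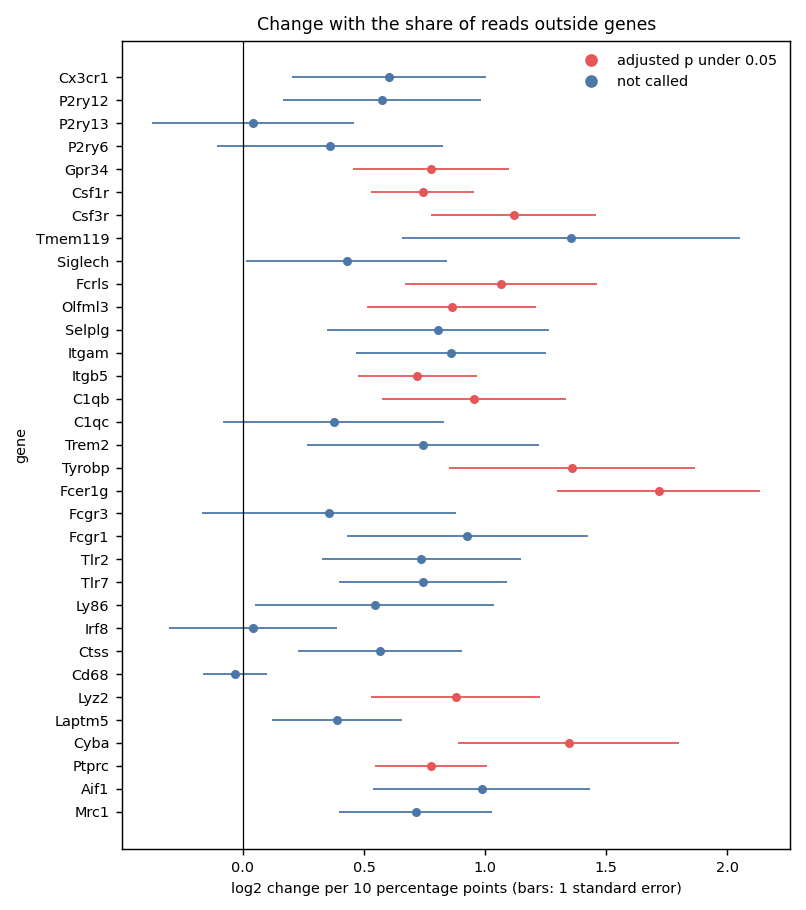
Slope of each tested gene on the share of reads outside genes, in log2 units per 10 percentage points, over 23 immunopurified libraries with group and library set as terms, with bars of 1 SE and called genes in red. The 12 called genes lie between 0.72 and 1.72, and Cd68, at -0.03, is the one gene below 0.

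Other cell types moved along the same axis. All 13 endothelial and mural markers were called higher with the share (median slope 0.98), and their summed level ran from 327 to 1422 CPM in the 6 libraries of lowest share and from 2581 to 11262 CPM in the highest 6, against 122 to 705 CPM in the inputs. Border macrophage markers summed to 14.3 to 68.9 CPM and to 60.5 to 210 CPM at the same ends, and 5 of 9 tested were called higher, among them Stab1 (0.98), Pf4 (2.04) and Cd209f (2.0). Markers of monocytes and neutrophils stayed near 0, with sums of 0 to 2.04 CPM and 0.427 to 6.71 CPM. Of the 4 tested, 2 were called higher, among them Ccr2 (1.80), and 1 was called lower. In the opposite direction, 7 of 8 indirect-pathway markers were called lower, Drd2 with a slope of -0.53, and 1 was called higher. The sum of the 8 was 10855 to 17239 CPM at the low end and 2944 to 8478 CPM at the high end. The astrocyte and oligodendrocyte lists had 1 gene called in each direction of 10 tested. The part of these cells in the members' slopes was not tested.

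Other lists of microglial biology were tested for the same slope, which over all genes was called higher for 25.1% and lower for 22.7%. Of 21 other microglial genes tested, 12 were called higher and 1 lower, with Mertk, a receptor for apoptotic cells (1.19 ± 0.15), the transporter Slco2b1 (1.11 ± 0.15) and the ectonucleotidase Entpd1 (0.58 ± 0.10) at the lowest p (adjusted p = 1.24e-06, 3.64e-06 and 4.16e-05, edgeR). Complement genes gave 4 of 10 higher, among them the protease C1s1 (1.51). Of 6 ligands of microglial receptors, 3 were called higher and 2 lower. Among them Csf1, the ligand of Csf1r, rose (0.86), and Cx3cl1, the neuronal ligand of Cx3cr1, fell by 0.65. Myeloid transcription factors gave 3 of 9 higher and 1 lower, and Spi1 was not called (0.36, adjusted p = 0.518, edgeR). For lists this short, the edgeR counts of complement genes and transcription factors are close to the shares over all genes. DESeq2 called 6 of the 10 complement genes higher and voom 7, none lower, and all 10 slopes were positive by each tool. For the transcription factors DESeq2 called 4 higher and 0 lower, and voom 3 and 1. The shares over all genes by DESeq2 and voom are not given here.

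The design asks whether cocaine self-administration, escalation of intake and withdrawal changed these levels in immunopurified RNA. No member was called in any of the 7 comparisons by edgeR, and neither was any of the other genes: 0 of 16910, a background of 0%. DESeq2 and limma voom also called no member, and over all genes DESeq2 called from 1 gene, in nonescalating withdrawal against saline withdrawal, to 8 higher and 4 lower, in nonescalating withdrawal against nonescalating, and voom called 0 in each. The number of members at an unadjusted p under 0.05 was 1 for nonescalating against saline, 2 for escalating against saline, 3 for escalating against nonescalating, 2 for nonescalating withdrawal against saline withdrawal, 0 for saline withdrawal against saline, 0 for nonescalating withdrawal against nonescalating, and 1 for the interaction. The comparisons share groups and are not independent of one another.

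Summed over the 37 genes, the level was 62.5 ± 37.3 CPM (SD, n = 3) in saline, 60.2 ± 35.8 (n = 4) in nonescalating and 45 ± 14 (n = 2) in escalating libraries. After withdrawal it was 114 ± 74.7 (SD, n = 5) for saline and 67.3 ± 45.9 (n = 9) for nonescalating libraries. The ranges of all 5 groups overlapped, from 23.3 to 97.6, 34.8 to 113, 35.1 to 55, 43.3 to 228 and 9.89 to 164 CPM in that order. The share of reads outside genes was highest in the same group: 39.0% ± 10.7, 31.9% ± 11.1, 33.4% ± 0.883, 47.5% ± 15.3 and 40.7% ± 13.2 (SD) in that order. Within saline withdrawal the libraries of set A summed to 228 and 144 CPM at shares of 70.7% and 52.7%, and those of set B to 97.6, 43.3 and 57.7 CPM at shares of 36%, 31.9% and 46.4%. The library at 144 CPM was placed in set A by its number alone, and its table has the symbol list of set B.

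**Figure D5:**
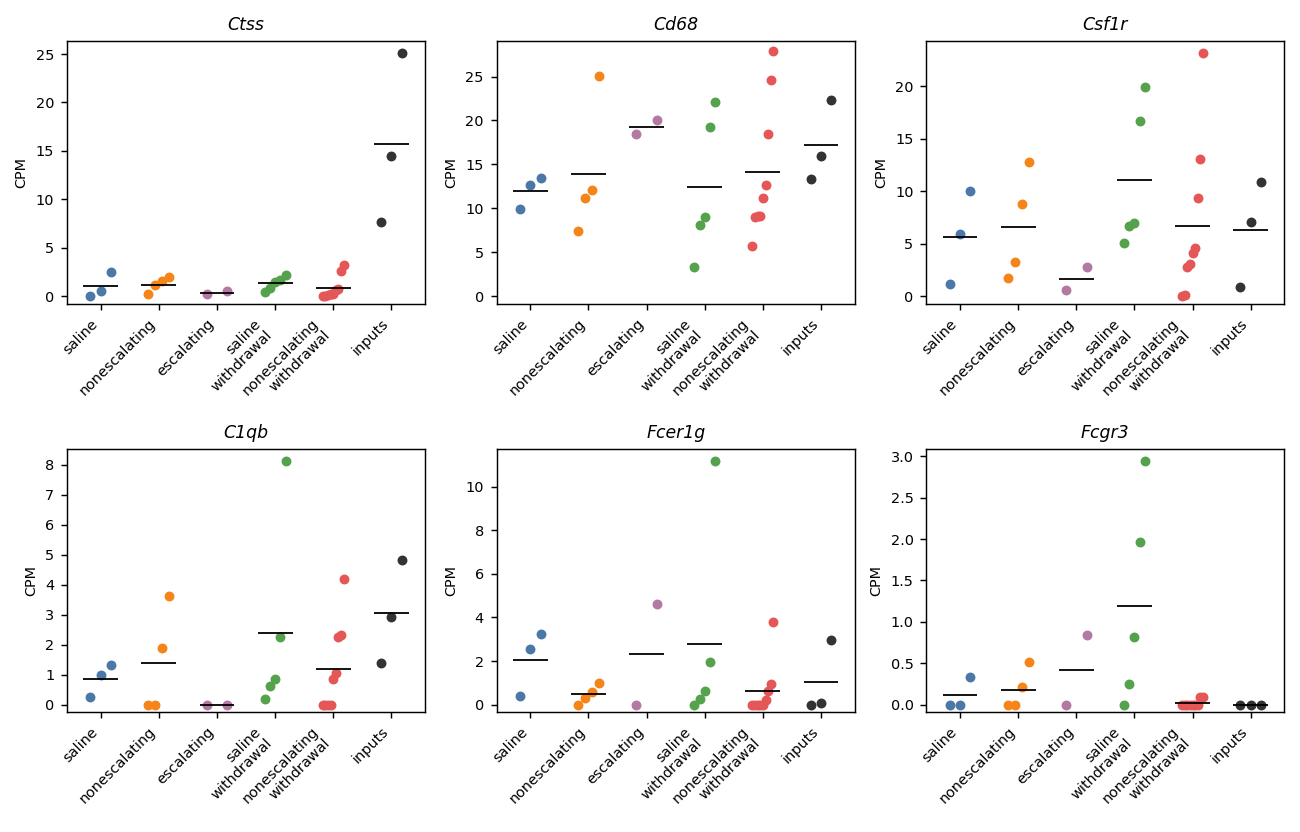
CPM of Ctss, Cd68, Csf1r, C1qb, Fcer1g and Fcgr3 in the 5 immunopurified groups and the inputs, with 1 point per library and a line at the mean. The inputs stand above all immunopurified libraries for Ctss, the 2 escalating libraries lie apart from saline for Cd68 and C1qb and from saline withdrawal for Csf1r and C1qb, the other immunopurified groups overlap, and Fcgr3 in nonescalating withdrawal does not exceed 0.0913 CPM. Such separations were not counted over all genes.

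Cocaine without withdrawal was compared first. In nonescalating against saline, 15 members were positive and 18 negative, with a median log2 fold change of -0.15 against 0.00 over all genes. Aif1 had the lowest p: it was at 0, 0.177 and 0.749 CPM in the saline libraries and at 0 in all 4 nonescalating libraries, at least 3.55-fold lower in the mean, or 1.02-fold without saline replicate 1 (adjusted p = 1, edgeR). P2ry6 was at 0, 0 and 0.25 CPM in saline and at 0, 0.417, 1.77 and 4.61 CPM in nonescalating (4.05 ± 2.06, adjusted p = 1, edgeR). Tyrobp was at 0, 0.0832 and 1.33 CPM in saline and had a read in only 1 nonescalating library, at 0.104 CPM (-3.55 ± 1.99, adjusted p = 1, edgeR). Each of these rests on 1 or 2 libraries above the others, and the groups overlapped.

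Escalation was represented by 2 libraries, the deepest of the series. Against saline, 10 members were positive and 23 negative (median -0.98, or -0.70 with genes at 0 in a group set to their bounds), and against nonescalating 9 and 23 (median -1.27, or -1.0 with bounds), against -0.02 over all genes in both. C1qb was at 0 in both escalating libraries, at 0.255, 0.972 and 1.33 CPM in saline, and at 0, 0, 1.87 and 3.62 CPM in nonescalating libraries. It was at least 9.82-fold lower than in saline and 15.8-fold lower than in nonescalating libraries in the mean (adjusted p = 1 for both, edgeR), bounds that fall to 4.40 and 7.09 without escalating replicate 2, and by over 1.5 times also without escalating replicate 1 or, against nonescalating, without nonescalating replicate 3. C1qc was at 0 and 0.0646 CPM in escalating against 1.15, 3.27 and 6.65 CPM in saline libraries (-6.39 ± 2.85, adjusted p = 1, edgeR). For both C1q subunits the escalating and saline values did not overlap, and nonescalating libraries reached down to 0. With 2 and 3 libraries a full separation can easily arise by chance, and it was not counted over the members or over all genes. Trem2 and Tyrobp were also at 0 in both escalating libraries. Without nonescalating replicate 1 (for Trem2) or saline replicate 4 (for both), the mean of the compared group was itself under the level that 3 counts allow, so no fold is given. Aif1 went the other way against nonescalating (0.194 and 1.05 CPM against 0 in all 4, at least 7.15-fold higher, or 2.23-fold without escalating replicate 2, adjusted p = 1, edgeR). Of 13 endothelial and mural markers 10 were negative against saline (median -0.72) and 11 against nonescalating (-0.43). With the share of reads outside genes as a covariate, the medians of the members were -0.43 against saline and -0.84 against nonescalating.

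Withdrawal comparisons leaned to positive signs. Saline withdrawal against saline had 31 positive and 2 negative members and a median of 1.61, against 0.08 over all genes, and with the share as a covariate 27 and 6 with a median of 1.15. In the same comparison all 13 endothelial and mural markers were positive (median 1.43), 6 of 9 border macrophage markers were positive (0.92) and 7 of 8 indirect-pathway markers negative (-0.51), none of them called, and their part in the members' values was not tested. Laptm5 had the lowest p, at 0.382, 2.47 and 3.74 CPM in saline and 3.08, 3.97, 7.35, 9.21 and 16.9 CPM in saline withdrawal libraries (2.78 ± 1.35, adjusted p = 0.782, edgeR). The groups overlapped only between 3.08 and 3.74 CPM. Fcgr3 (3.87 ± 1.94) and Ly86 (3.67 ± 2.06) followed, both with an adjusted p of 0.782 by edgeR. Nonescalating withdrawal against nonescalating had 25 positive and 8 negative members (median 0.70, against 0.09 over all genes), and without the term for library set 18 and 15 (median 0.03). All 13 endothelial and mural markers were positive here too (median 0.67). Set B holds only withdrawal libraries, so this term is estimated within withdrawal. Tmem119 was at 0 in all 4 nonescalating libraries and at 0 to 2.59 CPM (median 0) in nonescalating withdrawal, at least 5.28-fold higher in the mean, or 2.22-fold without nonescalating withdrawal replicate 1 of set B (adjusted p = 0.926, edgeR). Tyrobp (4.22 ± 2.06) and Csf3r (3.06 ± 1.67) were next, with the same adjusted p. Csf3r was at 0, 0, 0.104 and 1.95 CPM in nonescalating and between 0 and 6.83 CPM (median 1.27) in nonescalating withdrawal libraries.

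Cocaine within withdrawal gave the opposite sign. Nonescalating withdrawal against saline withdrawal had 5 positive and 28 negative members (median -0.83, against 0.01 over all genes), and 8 and 25 with the share as a covariate. All 13 endothelial and mural markers were negative as well (median -1.02), with 6 of 9 border macrophage markers negative (-0.47) and 7 of 8 indirect-pathway markers positive (0.63). Fcgr3 had the lowest p of any member in any group comparison. It was at 0, 0.249, 0.817, 1.96 and 2.94 CPM in saline withdrawal and at 0 in 7 of 9 nonescalating withdrawal libraries, with a highest value of 0.0913 CPM. That is 62 counts against 2 in all (-5.23 ± 1.35, adjusted p = 0.749, edgeR). Of the 62, 50 came from saline withdrawal replicate 1 of set A, the library with the highest share of reads outside genes. In the nonescalating withdrawal libraries of set B, 3 counts were worth 0.516 to 0.701 CPM, so a count of 0 there allows a level above 0.0913 CPM. In libraries without withdrawal, Fcgr3 was at 0, 0 and 0.333 CPM in saline, at 0, 0, 0.208 and 0.512 in nonescalating, and at 0 and 0.839 in escalating. The highest values were thus in saline withdrawal, at 1.96 and 2.94 CPM, and that group also held a library at 0. Fcgr3 also had the lowest p in the interaction of cocaine and withdrawal (-5.79 ± 2.27, adjusted p = 1, edgeR), where 11 members were positive and 22 negative (median -0.93, against 0.07). Tlr7, a sensor of single-stranded RNA, and Trem2 were next in the comparison within withdrawal, at 0.249 to 4.06 CPM against 0 to 1.26 CPM for Tlr7 (-2.52 ± 1.12) and 0 to 1.30 against 0 to 0.214 CPM for Trem2 (-2.82 ± 1.49), both overlapping and with an adjusted p of 0.749 by edgeR. P2ry6 (-4.56 ± 2.37) and Gpr34 (-3.61 ± 2.0) were next in the interaction (adjusted p = 1, edgeR).

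For the more abundant genes no immunopurified group lay apart from all others. Cd68 was at 9.98, 12.6 and 13.4 CPM in saline, at 7.39, 11.1, 12.1 and 25.1 in nonescalating and at 18.5 and 20.1 in escalating libraries. It was at 3.36, 8.14, 8.99, 19.3 and 22.2 CPM in saline withdrawal and at 5.75 to 27.8 CPM (median 11.2) in nonescalating withdrawal. Both escalating libraries lay above all saline libraries and within the range of every other group. Ctss stayed between 0 and 3.23 CPM in all 23 libraries, with medians of 0.509, 1.34, 0.395, 1.49 and 0.216 CPM in saline, nonescalating, escalating, saline withdrawal and nonescalating withdrawal. Csf1r was at 1.15, 5.92 and 9.98 CPM in saline and at 5.04, 6.74, 6.95, 16.7 and 19.9 CPM in saline withdrawal libraries, and at 0 to 23.2 CPM (median 4.11) in nonescalating withdrawal. The escalating libraries, at 0.581 and 2.78 CPM, lay below all of saline withdrawal and overlapped the other groups.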

How the data were processed

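TRAP and input RNA of 26 libraries was sequenced. The deposited values are raw read counts per gene symbol, 1 table per library, made by the authors with STAR 2.0.0e on mm10 and HTSeq, per the submitters' processing notes. No source used here gives the annotation release, strand setting, library kit or filters. Groups come from the titles. The tables follow 2 annotations (32531 symbols in 10 tables, 32657 in 16). Joining the 31735 shared symbols, and 244 further genes listed under an old symbol in some tables and a current one in others, left 31979 genes with 99.5% to 99.9% of each library's gene counts. Entries that name no gene served only for the share outside genes, which is the no-feature reads as a percentage of gene, no-feature and ambiguous reads, and may include introns or the other strand.

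Fits used R 4.3.3 with edgeR 4.0.16 (TMM, filterByExpr, quasi-likelihood F test, Benjamini-Hochberg over all genes tested, called at an adjusted p under 0.05). Immunopurified versus input was fitted to 15 libraries and 16424 genes with terms for condition and set, leaving 10 residual degrees of freedom. The slope used 23 libraries with group, set and share (16910 genes, 16 residual degrees of freedom), and group comparisons 23 libraries with group and set (17 residual degrees of freedom). CPM were computed on library sizes scaled by TMM. Alternatives were DESeq2 1.42.0, limma voom 3.58.1 with library weights, RLE factors, no filter, other terms, a replicate block, single sets and each library left out. The fits were tested on simulated data. No 2 libraries of a group were identical (0 of 56 pairs, chi-square per degree of freedom at least 11.8). The numbers that set A titles name as copied are not in the series, so this check could not compare libraries with them.

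The members, the other gene lists and the tests were chosen with earlier results of these data known. Values per library are given for members called in any comparison, the 5 of highest level per kilobase in inputs and in immunopurified libraries, and the 3 of lowest p in each group comparison, and up to 3 genes of lowest p per other list. Some genes this rule names in the other lists are not reported here. Members named outside this rule (Tmem119, Selplg, Cx3cr1, P2ry12, Mrc1, Ly86, Tlr2 and others at 0 in the inputs) were chosen after their values were seen. Coordinates are from GENCODE M21 (GRCm38) and played no role in counting. Promoter windows are RefSeq's.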

Additional observations from a re-analysis of the deposited data

Results flagged for a closer look

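Among the 15 measures looked at in groups of 4 to 10 libraries, 13 of 45 groups held a library far from the others by Dixon's test at the 95% level, and all were high values. Chance flags about 1 in 20 groups, but that rate does not apply here: 13 of the 15 measures are members called in a comparison, 12 of them for rising with the share of reads outside genes, so high values in libraries of high share follow from the choice, and many values are 0. Saline withdrawal replicate 1 of set A (share 70.7%) stood apart for C1qb at 8.12 CPM (next 2.24), Csf3r at 8.12 (next 1.99), Cyba at 6.06 (next 1.74), Fcer1g at 11.2 (next 1.96) and Ptprc at 16.3 (next 5.97). Nonescalating withdrawal replicate 1 of set A (60.7%) stood apart for Csf3r at 6.83 CPM (next 2.91), Fcer1g at 3.77 (next 0.934) and Itgb5 at 16.8 (next 7.08). Nonescalating replicate 3 of set A (45%) stood apart for Csf3r at 1.95 CPM (next 0.104), Fcrls at 1.25 (next 0.208) and Ptprc at 5.84 (next 1.25). Tyrobp was high in 2 other libraries, at 0.104 CPM in nonescalating replicate 4 of set A, where the other libraries were at 0, and at 3.02 CPM in nonescalating withdrawal replicate 1 of set B (next 1.35).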

How the results depend on the processing

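In immunopurified versus input, the count of 1 member called became 4 with DESeq2 (Ctss and Trem2 lower, Lyz2 and Mrc1 higher), 2 with no low-count filter, 3 with the share of reads outside genes as a covariate, 2 with voom, and 0 to 2 when single libraries were left out. Ctss was called in 20 of 23 alternatives, with log2 fold changes of -4.78 to -3.25. Fcer1g in the same comparison went from 1.15 to -0.0257 with the share as a covariate. For the slope, 12 members became 18 with voom, 16 with no group term, 13 with DESeq2, 5 in set A alone, 2 in set B alone (11 tested), and 6 to 16 when single libraries were left out. The slope of Cd68, -0.03 and not called, turned positive with DESeq2 (0.0401), RLE factors (0.0402) and no term for library set (0.0136). It ran from -0.08 to 0.02 when single libraries were left out, and was positive without nonescalating replicate 1 (0.0156), nonescalating withdrawal replicate 1 (0.0104) or nonescalating withdrawal replicate 4 (0.00922), all of set A. No alternative called a member in a comparison of groups, including the fit with saline withdrawal replicate 2 of set A as a set of its own. The slope and the comparison with input were not refitted that way. RLE factors moved the median of all genes in saline withdrawal against saline from 0.08 to 0.22, with 31 members positive under both. Over all genes, immunopurified versus input called 548 higher and 576 lower, against 1831 and 1095 with DESeq2, 930 and 858 with the share as a covariate, 18 and 52 with the replicate block, and from 88 and 153 (without nonescalating input replicate 1) to 834 and 694 (without nonescalating immunopurified replicate 2) when single libraries were left out. The slope called 4240 and 3847, against 2956 and 2283 in set A alone and 1116 and 199 in set B alone. The causes were not tested.

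Among immunopurified libraries, replicate numbers shared across groups gave no sign of pairing: the deviations from group means correlated at a median of -0.11 (from -0.73 to 0.66) over 25 pairs with the same number and of -0.019 over 78 other pairs. The deviations were not adjusted for the share of reads outside genes. Pairing of an input with an immunopurified library was not tested. With the replicate number as a block, 0 members were called in immunopurified versus input (Ctss -4.78, adjusted p = 0.138, edgeR) and 6 for the slope.

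Depth limits most members: 3 counts were worth up to 0.915 CPM, and 7 members had a median of 0 over immunopurified libraries.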
